A study of Mus musculus with 2 samples.

Results

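The unfolded protein response genes described here are 10 genes of the mouse heart, chosen by symbol from the 55536 annotated genes of the deposited gene tables. They are the stress sensors Atf6, Ern1 and Eif2ak3, the transcription factors Xbp1, Atf4 and Ddit3, and the protein folding and disposal genes Calr, Canx, Pdia4 and Herpud1. Total RNA from the heart of 2 female B6CASTF1/J mice, the F1 hybrid of C57BL/6J and CAST/EiJ, was sequenced at 2 months of age, with 1 library per animal from 300 ng of RNA, ribosomal RNA reduced and ERCC spike-in transcripts added. The animals form 1 group with no treatment, genotype contrast or time course, so the design implies levels and their spread, and a comparison of animal 2 with animal 1. Both animals carry the same strain-level donor label and have separate tissue samples, and the labels number them as biological replicates 1 and 2.

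The endoplasmic reticulum (ER) is where secreted and membrane proteins fold, and the unfolded protein response adjusts the cell when unfolded protein builds up there. IRE1 (encoded by Ern1) removes a short intron from Xbp1 mRNA, PERK (Eif2ak3) phosphorylates eIF2alpha and thereby raises translation of ATF4, and ATF6 is cut in the Golgi to release a transcription factor. The response induces ER chaperones, disulfide isomerases and degradation factors, and, when stress persists, the pro-apoptotic factor CHOP (Ddit3). In the heart these genes serve cardiomyocytes, which handle calcium through the sarcoplasmic reticulum, and also fibroblasts and other secreting cells.

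The libraries held 41862417 and 41790009 gene reads, with spike-in reads equal to 0.600% and 0.623% of them. Levels are given as TPM, a read count per transcript length scaled to a fixed sum in each library. The 7SL RNA genes held 21.3% and 13.1% of the sum in animals 1 and 2, and the nuclear protein-coding genes 38.4% and 45.1%. A TPM of any messenger RNA is therefore set lower in animal 1, and the median gene had a log2 ratio of 0.22 by deposited TPM against -0.002 on counts scaled by the trimmed mean of M values (TMM). Cardiomyocyte markers summed to 25830 and 29946 TPM; these are the defining genes of the labelled tissue's muscle. In bulk tissue, fewer cells of a type and less RNA per cell cannot be told apart.

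All 10 genes were detected in both animals, from 378 reads over both libraries for Ddit3 to 27085 for Canx. The symbol Ddit3 is carried by another entry (ENSMUSG00000116429.1, chr10:127290829-127293753, mm10), which lies inside the main gene and had 0 reads in both libraries. The main entry (ENSMUSG00000025408.15) is used below. Together the 10 genes summed to 392 TPM in animal 1 and 525 TPM in animal 2, a mean of 459 TPM ± 94.3 (SD, n = 2). The folding and disposal genes held 307 and 412 TPM of this, the transcription factors 55.2 and 77.9 TPM, and the sensors 29.8 and 35.8 TPM. Messages of the folding and disposal genes were thus the bulk of the sum, and those of the sensors its smallest share.

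**Figure D1:**
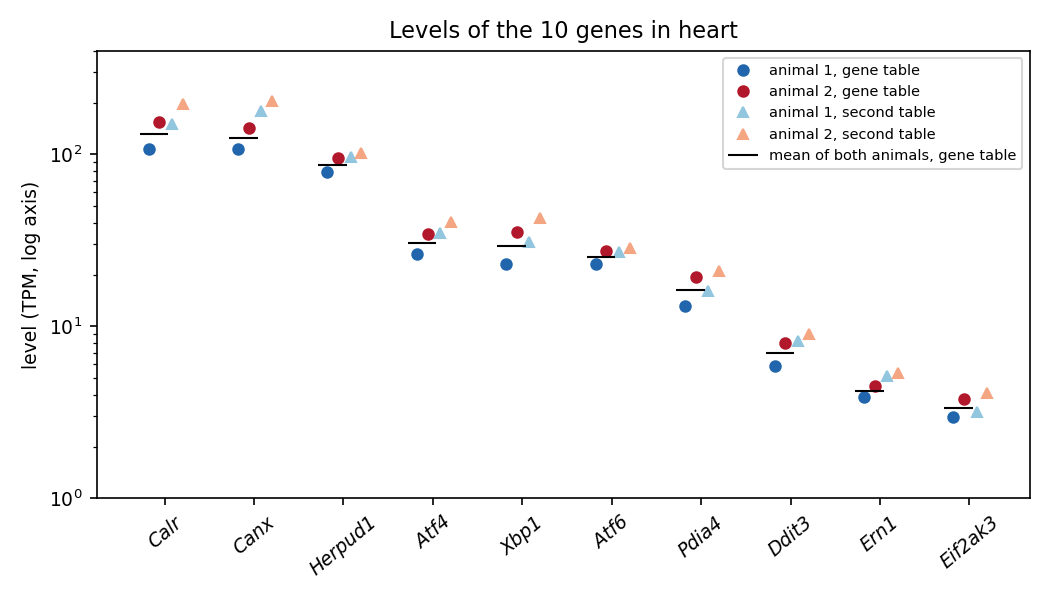
Level of each of the 10 genes in each animal, in TPM on a log axis, as given by the gene table and by the second transcript table. Points are single animals; Calr and Canx sit at the top with over 100 TPM and Ern1 and Eif2ak3 at the bottom with under 6 TPM in both tables.

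The sensors differed widely in level. Atf6 (ENSMUSG00000026663.6, chr1:170704674-170867771, minus strand) encodes the membrane-bound precursor of the ATF6 transcription factor, and measured 22.95 and 27.54 TPM in animals 1 and 2, a mean of 25.2 TPM ± 3.25 (SD, n = 2). Ern1 (ENSMUSG00000020715.9, chr11:106394650-106487852, minus strand), which encodes the kinase and endoribonuclease IRE1, measured 3.89 and 4.49 TPM, a mean of 4.19 TPM ± 0.424 (SD, n = 2). Eif2ak3 (ENSMUSG00000031668.14, chr6:70844515-70905245, plus strand), which encodes the eIF2alpha kinase PERK, measured 2.95 and 3.76 TPM, a mean of 3.36 TPM ± 0.573 (SD, n = 2). The level of Atf6 lay far above those of the other two sensors in both animals. Among the 11010 nuclear protein-coding genes with at least 1 TPM in both animals, Atf6 ranked 2315, Ern1 8061 and Eif2ak3 8752 by mean TPM. The 2 lower sensors did not overlap in TPM, and Ern1 was above Eif2ak3 in both animals and both quantifications.

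Of the transcription factors, Atf4 and Xbp1 had levels that could not be separated. Atf4 (ENSMUSG00000042406.8, chr15:80255184-80257541, plus strand) encodes the factor translated when eIF2alpha is phosphorylated, and measured 26.32 and 34.52 TPM, a mean of 30.4 TPM ± 5.80 (SD, n = 2). Xbp1 (ENSMUSG00000020484.18, chr11:5520659-5525893, plus strand), the substrate of IRE1, measured 23.00 and 35.38 TPM, a mean of 29.2 TPM ± 8.75 (SD, n = 2). Atf4 was the higher of the pair in animal 1 and Xbp1 in animal 2, in both quantifications, and the range of Atf6 overlapped both of theirs. Ddit3 (chr10:127290774-127296288, plus strand), which encodes CHOP, measured 5.90 and 8.03 TPM, a mean of 6.97 TPM ± 1.51 (SD, n = 2), and ranked 6400. It lay below Atf4 and Xbp1 in both animals. Its count rested on 169 and 209 reads, and it overlaps the gene Mars (1299 and 1333 reads) on the opposite strand by 68 bases. The sources used here do not say whether reads were assigned by strand.

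IRE1 activity is read from the removal of 26 bases from Xbp1 mRNA. They lie at chr11:5524279-5524304 (mm10, plus strand), in exon 4 of 5 of the main transcript Xbp1-201 and inside its coding sequence, at bases 815 to 840 of the transcript. The sequence is shown because it sets what these tables can say of the response, with the removed bases in capitals and 15 flanking bases on each side in lower case.
Xbp1-201: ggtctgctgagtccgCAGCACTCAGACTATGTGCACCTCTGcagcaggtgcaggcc
All 3 protein-coding Xbp1 transcripts of the annotation held these bases, and the retained-intron transcript Xbp1-202 did not. The join left after their removal was in none of the 4 annotated transcripts. The Xbp1 values are therefore levels of the gene, and give no share of spliced message.

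The folding and disposal genes were led by the lectin chaperones of the ER. Calr (ENSMUSG00000003814.8, chr8:84841850-84846934, minus strand) encodes calreticulin, a calcium-binding lectin chaperone of the lumen, and measured 106.94 and 155.00 TPM, a mean of 131 TPM ± 34.0 (SD, n = 2). Canx (ENSMUSG00000020368.15, chr11:50293961-50325673, minus strand) encodes calnexin, its membrane-bound partner, and measured 107.89 and 142.29 TPM, a mean of 125 TPM ± 24.3 (SD, n = 2). These 2 genes ranked 422 and 438 among the expressed protein-coding genes, and their order changed between the animals. Herpud1 (ENSMUSG00000031770.16, chr8:94386438-94395377, plus strand), a membrane component of ER-associated degradation, measured 78.89 and 94.84 TPM, a mean of 86.9 TPM ± 11.3 (SD, n = 2). Pdia4 (ENSMUSG00000025823.9, chr6:47796141-47813430, minus strand), a protein disulfide isomerase, measured 13.20 and 19.41 TPM, a mean of 16.3 TPM ± 4.39 (SD, n = 2). Herpud1 was below Canx and above Atf4 in both animals, and Pdia4 was below Atf6 and above Ddit3, with no overlap of either pair. Ranked by mean TPM, the 10 genes thus ran Calr, Canx, Herpud1, Atf4, Xbp1, Atf6, Pdia4, Ddit3, Ern1 and Eif2ak3. Of the neighbours in that order, only Calr and Canx, Atf4 and Xbp1, and Xbp1 and Atf6 overlapped in their ranges over the 2 animals.

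The deposited transcript tables split each gene into its annotated transcripts, and come from 2 quantifications. In both, 1 protein-coding transcript held most of every gene's TPM. That share was 100% for Pdia4-201 (641 residues), 99.0% for Atf6-201 (656 residues) and 95.2% for Atf4-201 (349 residues) as a mean in the first table, and 100%, 98.9% and 96.8% in the second. It was 84.1% and 82.7% for Xbp1-201 (267 residues), which encodes the protein of the unspliced message, and 87.8% and 94.2% for Ddit3-201 (168 residues). Eif2ak3-201 (1114 residues) held 81.7% and 85.9%, and Ern1-201 (977 residues) 83.5% and 68.1%. The second share of Eif2ak3-201 is a mean of 91.3% in animal 1 and 80.4% in animal 2. Herpud1-205 (391 residues) held 78.3% and 73.3%, with Herpud1-201 (390 residues) at 8.42 and 7.81 TPM in the first table. Those 2 values rest on 554 and 462 reads, with standard deviations of read assignment of 66.6 and 78.7. For these genes both tables name the same main transcript, though for Ern1 they place different shares on its non-coding transcript Ern1-205.

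The 2 quantifications differed most for Calr and Canx. Canx-202, a non-coding processed transcript of 708 bases near the end of the gene, measured 17.37 and 31.05 TPM in the first table and 73.0 and 86.8 TPM in the second. Calr-204, a retained-intron transcript of 943 bases, measured 4.59 and 4.73 TPM in the first table and 34.8 and 48.5 TPM in the second. Protein-coding transcripts held 80.7% of Canx and 95.1% of Calr in the first table, as means of the animals, and 58.3% and 74.7% in the second. At gene level the second table put Canx at 179 and 204 TPM and Calr at 150 and 196 TPM, so that Canx was the higher in both animals. Counting protein-coding transcripts alone, a setting added after the values were seen, Calr measured 100.84 and 148.56 TPM in the first table and 113 and 145 TPM in the second. Canx on the same setting measured 89.98 and 111.05 TPM, and 106 and 117 TPM. The coding transcripts of calreticulin were therefore the higher in both animals and both tables, while the order at gene level differed between tables.

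**Figure D2:**
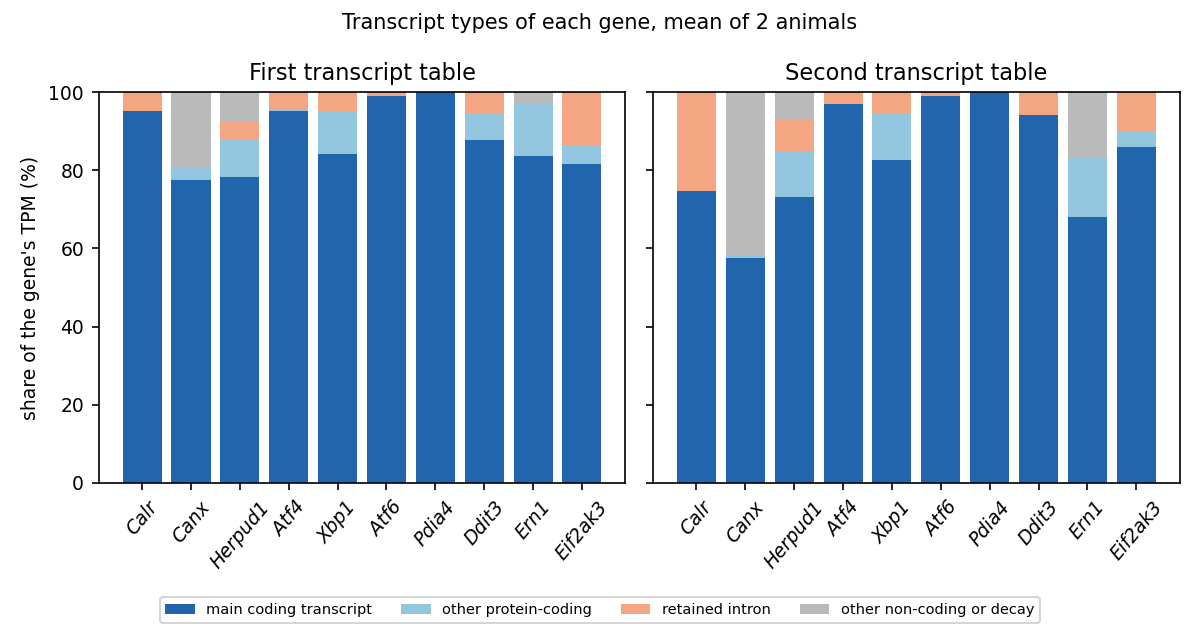
Share of each gene's TPM, in percent as the mean of 2 animals, held by its main coding transcript, other protein-coding transcripts, retained-intron transcripts and other non-coding or decay transcripts, in the first (left) and second (right) transcript table. Calr and Canx change most between the panels, with protein-coding shares of 95.1% and 80.7% on the left and 74.7% and 58.3% on the right.

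Comparing the animals, Xbp1, Calr and Pdia4 were higher in animal 2 and no gene of the 10 was higher in animal 1. The call needed at least 1.2-fold and an adjusted p of at most 0.05 in a two-sided exact binomial test of the reads given TMM-scaled library sizes, with Benjamini-Hochberg adjustment over 16133 genes. This rule called 3.32% of all genes tested as higher in animal 2, and 2.48% as higher in animal 1. Among the 10744 nuclear protein-coding genes with at least 200 reads the shares were 3.91% and 1.49%. The test compares 2 libraries, with no replicate check, and its intervals and p-values cover counting error only.

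Xbp1 had 1569 and 2184 reads in animals 1 and 2, a fold of 1.32 (95% interval 1.24 to 1.41, exact binomial adjusted p = 2.79e-15). Calr had 7983 and 10505 reads, a fold of 1.25 (1.21 to 1.28, exact binomial adjusted p = 3.13e-48). Pdia4 had 1126 and 1489 reads, a fold of 1.25 (1.16 to 1.36, exact binomial adjusted p = 3.57e-07). These 3 genes were called by a rule that needs at least 1.2-fold, so high ranks among the animals' ratios follow from it. The shares below describe those ranks and are no separate evidence. Of the 10744 protein-coding genes, 1.99% had a ratio at least as high as that of Xbp1, 3.59% as that of Pdia4 and 3.81% as that of Calr.

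Canx and Atf4 differed by less than 1.2-fold. Canx had 12751 and 14334 reads, a fold of 1.07 (1.04 to 1.09, exact binomial adjusted p = 5.05e-06). Atf4 had 1603 and 1877 reads, a fold of 1.11 (1.04 to 1.19, exact binomial adjusted p = 0.0234). With no fold minimum these 2 join the 3 above, against 6.60% of all genes and 8.78% of the protein-coding genes higher in animal 2.

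The other 5 genes did not pass the test. The intervals of their folds bound the difference between these libraries. Herpud1, with 4898 and 5378 reads, had a fold of 1.04 (1.00 to 1.08), and Atf6, with 6032 and 6531 reads, a fold of 1.03 (0.991 to 1.06). Ern1, with 868 and 905 reads, had a fold of 0.989 (0.900 to 1.09). For Atf6, Ern1 and Herpud1 the intervals under TMM lie below 1.2-fold in either direction. Eif2ak3, with 400 and 497 reads, had a fold of 1.18 (1.03 to 1.35), and Ddit3 a fold of 1.17 (0.953 to 1.44). The intervals of these 2 reach past 1.2-fold, so that at this depth a difference of that size was not resolved. On protein-coding transcripts only, a setting added later, the log2 ratio of Eif2ak3 was 0.16, against 0.24 for the whole gene. Its retained-intron transcript Eif2ak3-202 had 0 reads in animal 1 and 26.84 in animal 2 in the first transcript table. Scaling moved the side of the p threshold for 3 of these 5 genes. Scaled by total counts in place of TMM, Eif2ak3 was called (log2 ratio 0.32, exact binomial adjusted p = 0.00848). Herpud1 and Atf6 then had log2 ratios of 0.14 and 0.12, under 1.2-fold, with exact binomial adjusted p = 2.29e-05 and 7.66e-05. Scaled by spike-ins, Herpud1 had a log2 ratio of 0.08 with an exact binomial adjusted p = 0.0311.

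By role, 0 of 3 sensors, 1 of 3 transcription factors and 2 of 4 folding and disposal genes were called. Over the 10 genes the median log2 ratio was 0.19, from -0.02 for Ern1 to 0.40 for Xbp1, and 9 of 10 were above 0. All 10 were above 0 when scaled by total counts or by spike-ins, under which Ern1 stood at 0.06 and 0.01. Over all genes tested the median was -0.002, with 7958 of 16133 above 0. By deposited TPM every one of the 10 was higher in animal 2, by 1.15-fold for Ern1 to 1.54-fold for Xbp1, and that scale carries the shift of 0.22 given above. On TPM recomputed over nuclear protein-coding genes, Xbp1 measured 60.0 and 78.4, Calr 279 and 344, and Pdia4 34.4 and 43.0. On the same scale Ern1 measured 10.1 and 9.95 and Atf6 59.8 and 61.0.

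**Figure D3:**
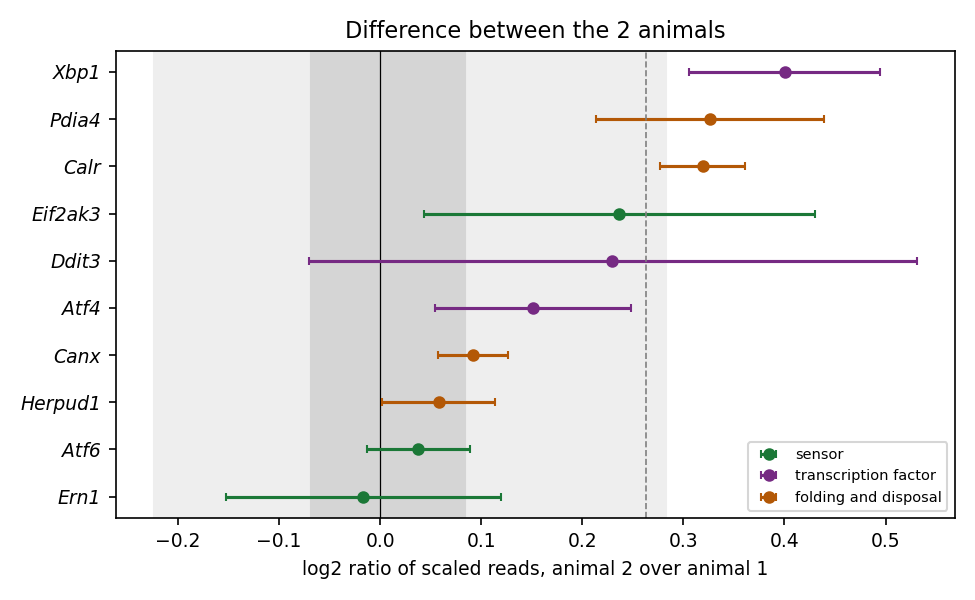
Log2 ratio of animal 2 over animal 1 on TMM-scaled reads for each of the 10 genes, with exact 95% intervals for counting error. The bands span the 5th to 95th and 25th to 75th percentiles of 10744 nuclear protein-coding genes (-0.22 to 0.28, and -0.07 to 0.08) and the dashed line marks 1.2-fold; Xbp1, Pdia4 and Calr lie past the outer band.

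Other genes of the pathway were taken from 9 lists, which hold 8 of the 10 genes, all but Xbp1 and Atf4, and 110 others, of which 103 had at least 20 reads. Of these 103, 12 were higher in animal 2 at 1.2-fold, a share of 11.7%, and 0 were higher in animal 1. At 1.2-fold the rule called 3.32% of all genes tested as higher in animal 2 and 2.48% as higher in animal 1. Among nuclear protein-coding genes with at least 200 reads these shares were 3.91% and 1.49%. They also stand beside the counts of each list below. With no fold minimum, 23 were higher in animal 2, a share of 22.3%. Without that minimum the shares higher in animal 2 were 6.60% of all genes tested and 8.78% of nuclear protein-coding genes with at least 200 reads. In the other direction 2, Txnip and Bcl2l11, were higher in animal 1, against 4.75% of all genes. The median log2 ratio of the 103 genes was 0.05. Of the 9 lists, 5 held a call. The highest and lowest ratios of a list are given below among its genes with at least 200 reads over both libraries.

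The lumenal chaperones and their cofactors held the most. There, 7 of 12 were called as higher in animal 2 and 0 as higher in animal 1, with a median log2 ratio of 0.31 and a summed level of 470 and 716 TPM. Hspa5, which encodes BiP, the chaperone that also holds the sensors inactive, had 17826 and 24837 reads, a fold of 1.32 (1.30 to 1.35), at 211 and 331 TPM. Hsp90b1, the ER paralog of HSP90, had 10800 and 14323 reads, a fold of 1.26. Manf, a secreted ER stress protein, had 1150 and 1824 reads, a log2 ratio of 0.59 (interval of the fold 1.40 to 1.62). Sdf2l1, a BiP cofactor, had the highest ratio of the list, with 176 and 282 reads, a fold of 1.52 (1.25 to 1.84). Hyou1, Dnajb11 and Creld2 were the remaining calls, named after their values were seen. Cdnf, a relative of Manf, had the lowest ratio, with 797 and 763 reads, a fold of 0.908 that did not pass the test.

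Among 10 disulfide isomerases and oxidases, 4 were higher in animal 2, with a median log2 ratio of 0.20. Beside Pdia4 they were Pdia3, with 3849 and 5189 reads and a fold of 1.28, Pdia6, with 2481 and 3165 reads and a fold of 1.21, and Txndc5, named after its value was seen. P4hb, which led the list at a mean of 88.5 TPM, had a fold of 1.08, and Ero1l, an oxidase, had the lowest ratio at 0.970. In the calnexin and calreticulin cycle 2 of 9 tested genes were called, Calr and Pdia3, the isomerase that works with it. Uggt2, which had the lowest ratio of that list, had 207 and 202 reads. Both lists overlap the 10 genes and each other through these members.

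The ATF4 and CHOP targets gave 1 call among 20 tested genes, with a median log2 ratio of 0.09. It was Atf3, a stress-induced transcription factor, with 139 and 317 reads, a fold of 2.16 (1.77 to 2.66, exact binomial adjusted p = 2.49e-13). The most abundant targets were Vldlr, at a mean of 88.4 TPM, Ddit4, at 84.1 TPM, and Cebpb, at 51.2 TPM, and none of them reached 1.2-fold. Chac1, a glutathione-degrading enzyme, had the lowest ratio, with 150 and 127 reads, and did not pass the test. ER-associated degradation also gave 1 call among 16 tested genes, Edem1, a mannosidase-like factor, with 572 and 792 reads and a fold of 1.31 (1.18 to 1.46). Vcp, the ATPase that extracts proteins for degradation, led the list at a mean of 95.9 TPM, ahead of Herpud1, and neither was called. Erlec1 had the lowest ratio of the list at 0.891.

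The remaining 4 lists gave no call. Among stress sensors and activating proteases 0 of 11 tested genes were called, with a median log2 ratio of 0.02. Rtcb, the ligase that joins spliced Xbp1, led that list at a mean of 28.8 TPM, with Atf6 and then Creb3 at 19.0 TPM. Ern2, the IRE1 paralog of mucosal epithelia, had 0 reads in both libraries. Creb3l1 had the highest ratio of the list, with 159 and 214 reads, and Mbtps2, a protease that cuts ATF6, the lowest, and neither passed the test. Among eIF2alpha kinases, phosphatase subunits and eIF2B 0 of 12 were called, with a median of 0.02. Eif2s1, which encodes eIF2alpha, led it at 22.0 TPM, ahead of Eif2b5 at 20.9 TPM and Eif2b4 at 19.2 TPM, and at 200 reads or more its ratios ran from Eif2ak2 at 0.852 to Eif2ak3. Among ER translocation genes and secretory targets of XBP1 0 of 15 were called, with a median of 0.08. Spcs1 at 50.5 TPM, Ssr3 at 43.7 TPM and Srp54a at 36.2 TPM led it, and at 200 reads or more its ratios ran from Ssr4 at 0.966 to Sec61a1 at 1.16. Among 8 genes of ER stress and cell death 0 were called, with a median of 0.02. Txnip at 144 TPM, Tmbim6 at 85.1 TPM and Wfs1 at 33.8 TPM led it, and at 200 reads or more its ratios ran from Bcl2l11 at 0.853 to Bax at 1.07.

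**Figure D4:**
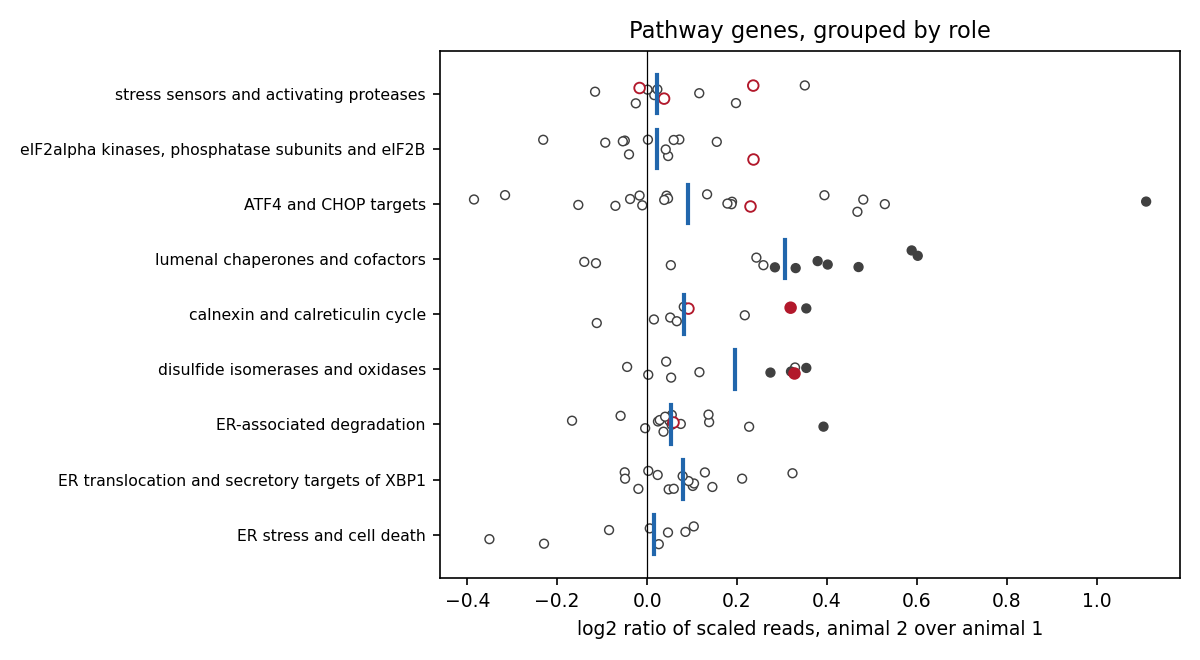
Log2 ratio of animal 2 over animal 1 for each tested gene of the 9 pathway lists, in rows by list. Filled points passed the test at 1.2-fold, red points are the 8 of the 10 genes that the lists hold (Xbp1 and Atf4 are in none), and the blue line is the list's median, which is 0.31 for the lumenal chaperones and between 0.02 and 0.20 for the others.

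Markers of several heart cell types were also higher in animal 2. The sums below are deposited TPM, which carries the shift of 0.22 given above, and the calls and medians are on TMM-scaled reads. Fibroblast markers summed to 242 and 325 TPM, with 3 of 5 called and a median log2 ratio of 0.28. Mural cell markers summed to 163 and 230 TPM, with 2 of 4 called and a median of 0.31. Endothelial markers summed to 118 and 158 TPM, with 0 of 4 called at 1.2-fold and a median of 0.18, and macrophage markers to 54.8 and 73.8 TPM, with 1 of 5 called and a median of 0.20. By the same rule 3.32% of all genes tested and 3.91% of nuclear protein-coding genes with at least 200 reads were higher in animal 2. The medians of these 4 lists lie from 0.18 to 0.31, beside 0.19 for the 10 genes. Adipocyte markers summed to 20.6 and 54.1 TPM, with 3 of 3 tested genes called, whose log2 ratios ran from 0.74 to 1.45. Lep, the other gene of that list, had 7 and 6 reads (log2 ratio -0.28), too few to be tested. Plasma and B cell markers summed to 6.39 and 14.6 TPM, with 2 of 4 tested genes called, a median of 0.75 and log2 ratios from -0.42 for the B cell gene Cd79a (42 and 33 reads, not called) to 1.54 for Igkc. Jchain, a defining plasma cell gene, had 5 and 7 reads, and no marker of any list was at 0. Cardiomyocyte markers had a median of -0.02 and erythroid markers, at 31380 and 36768 TPM, of 0.02, with 0 of 6 and 0 of 4 called. The part of these cell types in the difference of Xbp1, Calr, Pdia4 and the chaperones was not tested.

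Promoter windows of 250 bases before to 50 after the start were matched by symbol for 9 of the 10 genes in RefSeq (GRCm38.p6), all but Atf6. They are given because the ATF6, XBP1 and ATF4 branches are known to act through short elements near the start. Both strands were searched. The percentages below count RefSeq windows, whereas a gene counts as holding an element if any of its windows does, so the units differ. The ER stress element ERSE, bound by ATF6 with the CCAAT factor NF-Y, was spelled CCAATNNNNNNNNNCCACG. It was in 39 of 32851 windows, or 0.119%, and in those of Calr and Canx. The related element ERSE-II, spelled ATTGGNCCACG, was in 12 windows, or 0.0365%, and in that of Herpud1. The windows below show both parts of each element in capitals, 5′ to 3′ on the gene's strand, with Hspa5 for comparison.
Calr ERSE: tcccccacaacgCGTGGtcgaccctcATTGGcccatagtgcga
Canx ERSE: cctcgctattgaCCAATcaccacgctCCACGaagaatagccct
Hspa5 ERSE: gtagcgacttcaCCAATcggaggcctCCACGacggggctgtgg
Herpud1 ERSE-II: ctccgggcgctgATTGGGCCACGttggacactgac
The Calr window (chr8:84847063-84847105, minus strand) holds the element on the opposite strand, at -162 to -144 from the start, where -1 is the base before it. The Canx element (window chr11:50325788-50325830, minus strand) lies at -145 to -127, that of Hspa5 (window chr2:34772013-34772055, plus strand) at -65 to -47, and that of Herpud1 (window chr8:94386365-94386399, plus strand) at -52 to -42.

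The ATF4 element CARE, spelled TGATGNAAN, was in 1299 windows, or 3.95%, and among the 9 genes in Herpud1 alone. It is shown in capitals, on the opposite strand, at -113 to -105 (window chr8:94386304-94386336, plus strand), where it does not overlap the ERSE-II.
Herpud1 CARE: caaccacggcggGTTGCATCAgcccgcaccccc
The XBP1 element UPRE, spelled TGACGTG, was in 661 windows, or 2.01%, and in none of the 9. Of 90 other list genes with a window, 7 held an ERSE (Hspa5, Hsp90b1, Dnajc3, Creld2, Pdia6, Syvn1 and Derl3), 1 an ERSE-II, 5 a UPRE and 10 a CARE. Over the 250 bases before the start, the 9 genes had a median GC content of 62%, against 52.4% for all RefSeq entries. Among the 3 genes called between the animals, Calr held an ERSE, and Xbp1 and Pdia4 held none of these 4 elements in this window. The first RefSeq window of Pdia4 (chr6:47813463-47813762, minus strand) does not reach the annotated start of Pdia4-201, at 47813430. A match is a run of letters and not a measured site.

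**Figure D5:**
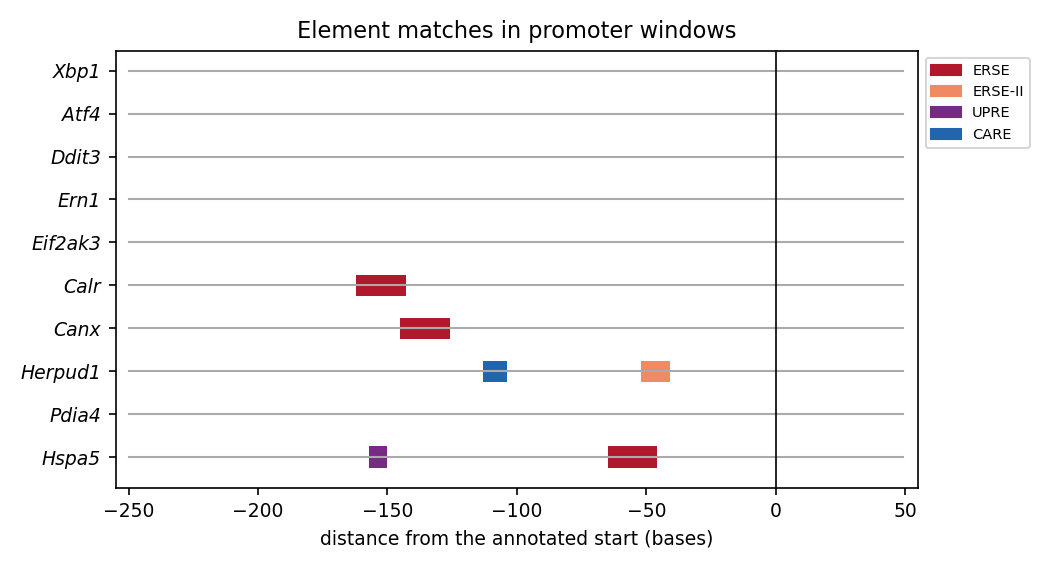
Positions of the element matches in the promoter windows of the 9 genes with a RefSeq window and of Hspa5, in bases from the transcription start (250 before to 50 after). Calr and Canx each hold 1 ERSE, Herpud1 holds 1 ERSE-II and 1 CARE, and the other 6 windows of the 9 genes hold none. Hspa5, shown for comparison, holds an ERSE and a UPRE, the latter at -157 to -151.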

How the data were processed

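Per the labels, heart RNA of 2 mice was sequenced as total RNA with ribosomal RNA reduced and aligned to mm10. The layout of the gene table and the first transcript table is that of RSEM, and of the second transcript table that of kallisto. The sources used here name no aligner and no counting options. Per the file headers, the authors deposited expected counts and TPM with posterior means and their standard deviations. These deviations measure read assignment, and were 0 for all 10 genes at gene level. The second transcript table gave estimated counts and TPM. Gene names and positions came from GENCODE M21 (mm10). Reads of the 2 parental genomes of the hybrid were not separated in these tables. The 26248 entries that bear only a number and no gene name held 4 and 2 reads. These were 9.5e-06% and 4.76e-06% of all counted reads, spike-ins included. The numbered entries stayed out of every test, as did spike-ins.

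Levels are the deposited TPM per animal with mean and SD. For the animals' ratio, expected counts were rounded, library sizes were scaled by TMM (edgeR 4.0.16, R 4.3.3), and each gene with at least 20 reads over both libraries was tested by a two-sided exact binomial test (scipy 1.17.1) with Benjamini-Hochberg adjustment. Intervals of the ratio are exact (Clopper-Pearson, 95%), and log2 ratios use a prior count of 0.5. The labels call the animals biological replicates, and with 1 library each no error between animals enters these p-values. edgeR's quasi-likelihood test was not used, since 1 group gives it no contrast. The procedure was tested on simulated counts with Poisson noise. They held no variation between animals, so the simulation does not cover it.

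All 10 genes are named, and from each list the 3 genes of highest mean TPM and, with at least 200 reads, the 1 of highest and the 1 of lowest ratio. One gene that this rule names is not reported here. The genes, lists and tests were chosen with earlier results of these data known, so their direction is not independent evidence. Alternatives were total counts, DESeq2 1.42.0 size factors, spike-in scaling, the second table, other filters, prior counts and folds, posterior means, TPM over nuclear protein-coding genes, each animal alone and, added later, protein-coding transcripts only.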

Additional observations from a re-analysis of the deposited data

How the results depend on the processing

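Xbp1, Calr and Pdia4 were called higher in animal 2 under every scaling, table and filter run. The prior count enters the log2 ratio only, so it could not change a call. Of the 10 genes, 3 were called in the analysis above, 5 with no fold minimum, 0 at 1.5-fold and 0 at 2-fold. Under total counts, where the median over all genes was 0.08, 4 were called, the added one being Eif2ak3 (log2 ratio 0.32, exact binomial adjusted p = 0.00848), and 1118 genes in all were higher in animal 2 and 277 in animal 1, against 536 and 400 under TMM. The median log2 ratio of the 10 genes was 0.19 as reported and 0.40 by deposited TPM, which carries the shift of 0.22. Herpud1 and Atf6 passed the p threshold under total counts, and Herpud1 under spike-in scaling, in each case below 1.2-fold. The sign of Ern1 turned under total counts (0.0627), spike-in scaling (0.00905) and protein-coding transcripts only (0.0255), uncalled in each. The summed level of 459 TPM was 601 TPM in the second table and 1093 on the scale of nuclear protein-coding genes, and 392 to 525 TPM with either animal left out. The ratio of the animals has no value with an animal left out. No paired analysis was possible because the 2 animals form 1 group. Depth limits Ddit3 and Eif2ak3, the members with the fewest reads. On protein-coding transcripts only, Eif2ak3 had a log2 ratio of 0.16 and was not called.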
